A study of Homo sapiens with 33 samples.

Results

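HLA-E and B2M encode the partner chains of one class I histocompatibility molecule, and each gene had 1 spot of its own on the cDNA membranes described here. The members were taken as all spots whose only gene symbol in the platform annotation is HLA-E or B2M, which gave 2 of 34560 spots, or 2 of the 10726 genes with a spot of their own. HLA-E lies on human chromosome 6 and B2M on chromosome 15. HLA-E was chosen by its intensities on unstimulated arrays, where earlier fits of the same data separated the cell lines, and B2M was chosen as its partner. HLA-E values on unstimulated arrays are therefore given as a description, with no test, and so are those of B2M.

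Both cell lines are human and established. THP-1 cells derive from a monocytic leukaemia and grow in suspension. CaCo-2 cells derive from a colon carcinoma and form epithelial sheets. Cells were either exposed to tumour necrosis factor alpha (TNF) at 5 ng per ml for 60 min or left unstimulated, which is called control. RNA was copied into radioactive cDNA and hybridised to the membranes, and 7 THP-1 TNF, 5 THP-1 control, 5 CaCo-2 TNF and 5 CaCo-2 control arrays were used. Each line is a single cell line, so a difference between them is one between these lines and not between monocytes and colon epithelium. The labels do not tell whether arrays of a group stem from separate cultures, and every p-value thus rests on a spread between arrays that could be technical. Precision is limited by how few arrays there are.

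Class I molecules consist of a heavy chain, such as HLA-E, and the light chain beta-2 microglobulin, which B2M encodes. Heavy chains need this light chain and a bound peptide to reach the cell surface in a stable form. The TAP transporter brings peptides into the endoplasmic reticulum, where tapasin and calnexin help to load and fold the complex. HLA-E mainly presents peptides cut from the signal sequences of other class I heavy chains, and natural killer cells read it through CD94 and NKG2 receptors. B2M also pairs with other heavy chains, among them relatives such as MR1, HFE and FCGRT. Interferons and TNF are known to raise class I genes through interferon-stimulated response elements and NF-kB sites in their promoters.

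The promoter of B2M is shown because that gene was measured with and without TNF. Of the 2 members, 1 matched the RefSeq promoter table used here (build GRCh38.p14), and HLA-E is named only. The window runs from 250 bases before to 50 bases after the start of B2M, at chr15:44711267-44711566 on the plus strand. Capitals mark matches to 4 motifs searched on both strands.

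B2M promoter: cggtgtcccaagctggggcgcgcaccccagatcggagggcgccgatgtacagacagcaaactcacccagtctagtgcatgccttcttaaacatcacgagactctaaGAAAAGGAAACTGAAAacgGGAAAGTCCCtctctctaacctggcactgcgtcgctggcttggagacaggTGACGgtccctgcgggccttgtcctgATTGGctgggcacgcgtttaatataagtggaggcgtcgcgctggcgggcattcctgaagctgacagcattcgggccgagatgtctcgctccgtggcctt

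The interferon-stimulated response element (GAAANNGAAA) matched on the plus strand at bases 107 to 116 and again at bases 113 to 122 of the window, and these matches overlap. The NF-kB consensus matched on the minus strand at bases 126 to 135. The CRE core motif (TGACG) stood at bases 176 to 180 on the plus strand, and the CCAAT box at bases 202 to 206 on the minus strand, where the printed strand reads ATTGG. Among 27305 RefSeq promoter windows of this length, 3.65% held the response element, 10.8% the NF-kB consensus, 25.0% the CRE core motif and 35.7% the CCAAT box. All 4 stood together in 2 windows, or 0.00732%, of which B2M is 1. Response elements and NF-kB sites were known in class I promoters before the search, so this share is a description and no test. Of 7 measured class I heavy chains and relatives, 1 held the response element, 1 the NF-kB consensus, 1 the CRE core motif and 4 the CCAAT box. A match describes letters in the window and does not show that a factor binds there.

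The values are spot intensities on a linear scale with no stated unit. An exact 0 stood at between 32.0% and 39.6% of the spots of an array, and no source used here says what a 0 means. The 33 columns of the table hold 10 pairs in which 1 column carries the sum and 1 column a single value of the same readings, and a pair was counted once, by its single value. The tests leave out 1 of these pairs, whose sum carries the label CaCo-2 control while its single value carries CaCo-2 TNF. For THP-1 control replicate 3 only a sum exists, which was divided by 3, so it rests on another kind of value than the arrays read from a single column. On spots that mark the cell types, the lines were only partly apart. Of 4 monocytic markers measured, LAPTM5 was above 0 on 12 of 12 THP-1 arrays and 1 of 10 CaCo-2 arrays, while PTPRC, CSF1R and TYROBP read above 0 in both lines. The summed intensity of the 4 markers ran from 0.901 to 1.29 on THP-1 TNF arrays, 1.24 to 1.31 on THP-1 control arrays, 0.486 to 1.34 on CaCo-2 TNF arrays and 0.511 to 1.04 on CaCo-2 control arrays. Of the epithelial markers, VIL1 and MUC13 were measured, and their summed intensity of 0.353 to 0.579 on THP-1 TNF arrays overlapped that of 0.457 to 0.643 on CaCo-2 TNF arrays. No epithelial marker measured was at 0 throughout THP-1, and no monocytic marker was at 0 throughout CaCo-2.

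HLA-E was read on every THP-1 array and on nearly no CaCo-2 array. On the 7 THP-1 TNF arrays its intensity was 0.298 at the lowest, 0.307 at the median and 0.316 at the highest. On the 5 CaCo-2 TNF arrays it was 0.337 on replicate 1 and listed at 0 on replicates 2, 4, 5 and 6. On the 5 THP-1 control arrays it was 0.302, 0.309, 0.320, 0.309 and 0.308. On the 5 CaCo-2 control arrays it was listed at 0 on each. HLA-E was thus above 0 on 12 of 12 THP-1 arrays and on 1 of 10 CaCo-2 arrays. That 1 deposited value lies above all 12 from THP-1, but on a brighter array. The median value above 0 was 0.227 on that array and 0.194 to 0.209 on THP-1 TNF arrays. On the normalized log2 scale its HLA-E level was -1.69, within the -1.75 to -1.66 of THP-1 TNF arrays. In such bulk samples, fewer cells with a transcript and less of it per cell cannot be told apart.

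**Figure D1:**
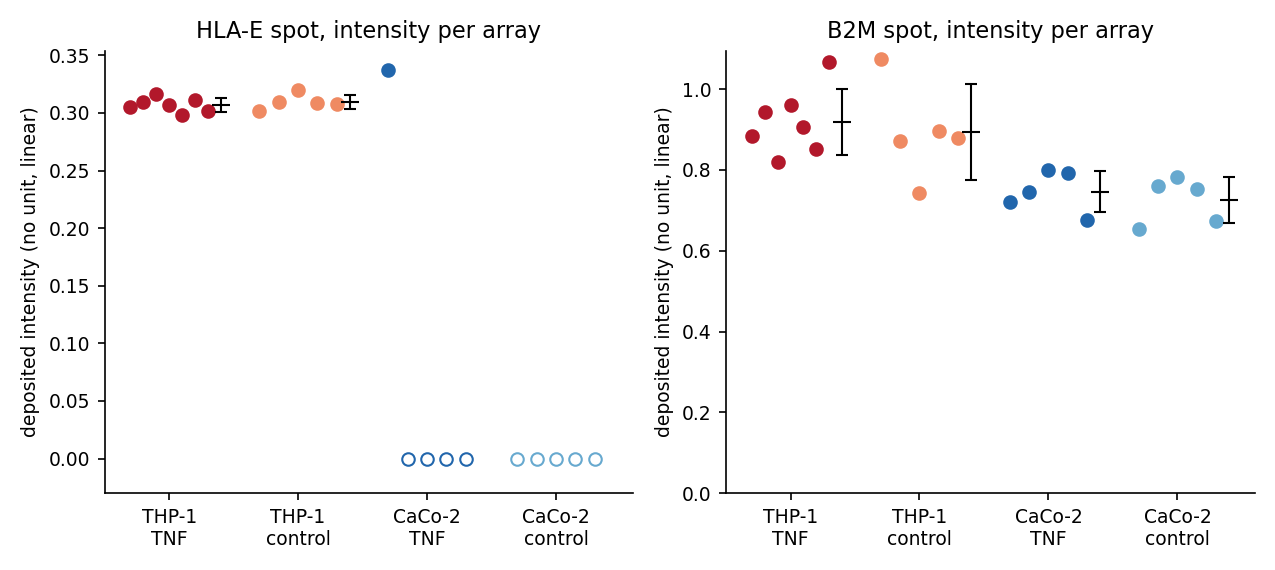
Deposited intensity (linear, no unit) of the HLA-E spot and the B2M spot on each array of the 4 groups. Filled points are values above 0, open points are values listed at 0, and the bars give mean ± SD where all arrays of a group are above 0. HLA-E is near 0.308 on all 12 THP-1 arrays and at 0 on 9 of 10 CaCo-2 arrays, while B2M is above 0 on all 22 arrays.

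On TNF arrays the spot was above 0 on 7 of 7 THP-1 and 1 of 5 CaCo-2 arrays (two-sided Fisher's exact test, p = 0.0101). The contrast that brought up HLA-E did not use these arrays. They come from the same lines, however, and earlier results of these data were known, so the test is not independent of the choice. With each array left out in turn, that p lay between 0.00303 and 0.0242. Over all spots that were measured on these arrays, 0.539% were above 0 on all THP-1 TNF arrays and on at most 1 CaCo-2 TNF array, and 0.404% showed the pattern the other way round. On control arrays, 0.137% of spots were above 0 on all THP-1 arrays and on no CaCo-2 array, as HLA-E was, and 0.238% were the other way round. The limma fit called 0.449% of all spots on control arrays. Above 0 on all 12 THP-1 arrays and on at most 1 of the 10 CaCo-2 arrays were 17 of 32734 spots, or 0.0519%, and 0.0611% had the pattern the other way round.

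The mean level of HLA-E in THP-1 lay above the lowest values read on the arrays. Its mean over the 12 THP-1 arrays was 0.308 ± 0.00612 (SD), and on CaCo-2 arrays the lowest value above 0 at any spot ran from 0.0921 to 0.136. Of the spots above 0 on all THP-1 arrays, 1928 had a mean there within 20% of that of HLA-E. Among these, 1123 spots (58.2%) were above 0 on all 10 CaCo-2 arrays, and 7.93% of all their CaCo-2 readings were 0. Only 5 of the 1928 spots (0.259%), HLA-E included, were above 0 on at most 1 CaCo-2 array. In the opposite direction, 2 of 1442 spots of that level in CaCo-2 were above 0 on at most 1 THP-1 array. Since the choice of HLA-E used part of these arrays, its place among such spots is a description.

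**Figure D2:**
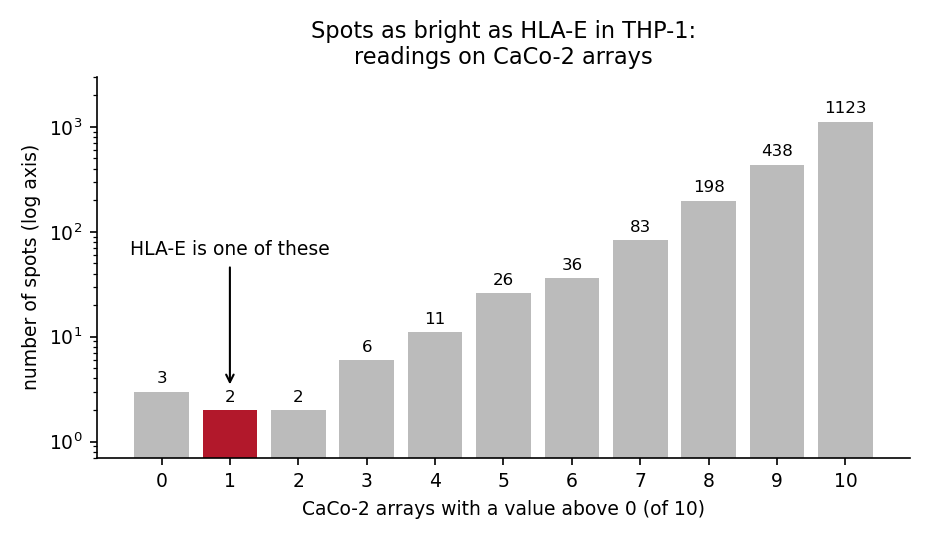
Number of spots (log axis) by how many of the 10 CaCo-2 arrays read above 0, for the 1928 spots that were above 0 on all THP-1 arrays with a mean within 20% of HLA-E. HLA-E is 1 of the 2 spots with 1 such array, and 1123 spots were above 0 on all 10.

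The paired columns show the readings behind these values. From the ratios of the columns, a single column was read as the median of those of 3 readings that are above 0: the middle one of 3, or the mean of 2. A lone reading above 0 stands in the summed column, while the single column lists 0. Such lone readings stood behind 33.5% to 34.0% of the spots at 0 in the single column of THP-1 pairs. In CaCo-2 pairs they stood behind 41.4% to 46.2%, so a 0 there more often hides such a reading. In the 3 THP-1 pairs, HLA-E had 9 of 9 readings above 0, with a mean of 0.301 to 0.307 per reading. In the 7 CaCo-2 pairs, the pair with differing labels included because both labels are CaCo-2, it had 4 of 21 readings above 0. These were 2 readings behind CaCo-2 TNF replicate 1, both together giving 0.674, 1 reading of 0.274 behind CaCo-2 control replicate 1 and 1 reading of 0.257 behind CaCo-2 control replicate 4. The lone CaCo-2 readings lay below the means per reading in THP-1, and the mean of 0.337 behind CaCo-2 TNF replicate 1 lay above them. The rest of the 21 readings were 0. Of 1904 spots of the HLA-E level, 6 (0.315%) had as few as 4 of 21 CaCo-2 readings above 0, HLA-E included, and the median spot had 20.0.

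**Figure D3:**
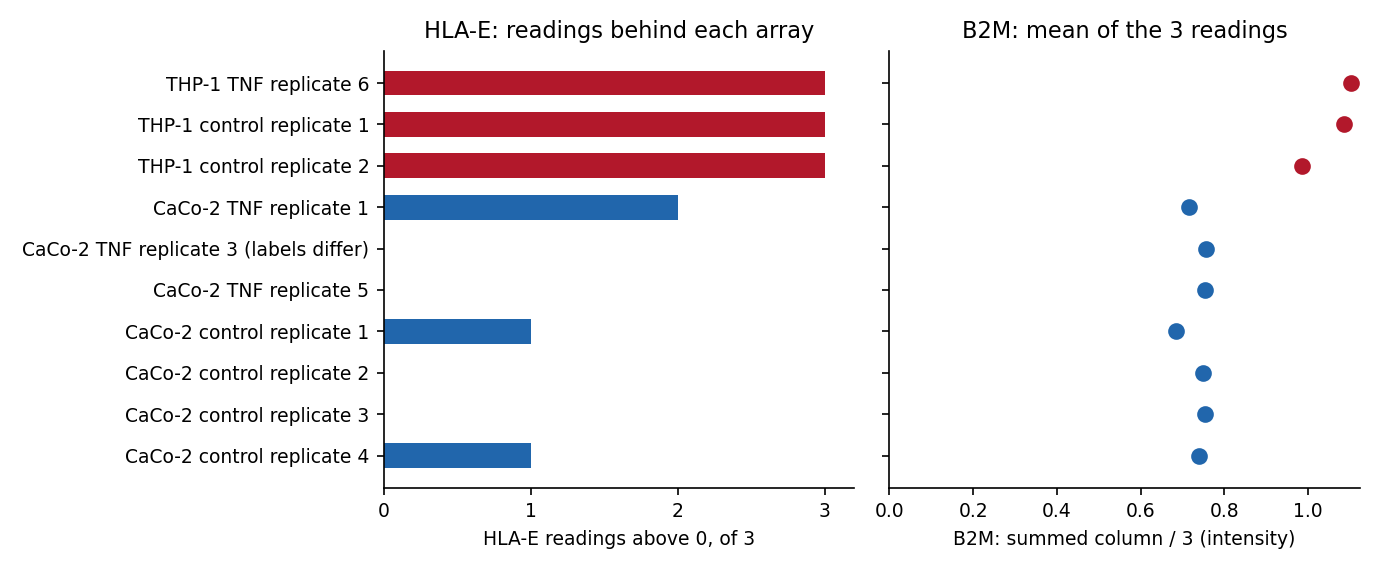
For each pair of columns, named by its single column, the number of the 3 HLA-E readings above 0 (left) and the mean B2M reading, which is the summed column divided by 3 (right). THP-1 pairs are red and CaCo-2 pairs blue. HLA-E has 3 readings above 0 in each THP-1 pair and 0 to 2 in CaCo-2 pairs, and B2M is higher in each of the 3 THP-1 pairs than in any of the 7 CaCo-2 pairs. The share of all spots with the B2M order was not computed.

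Because only 1 of 5 CaCo-2 TNF arrays had HLA-E above 0, the size of the log2 difference is set by how a 0 is treated. With each 0 raised to the lowest positive value of its array, the log2 difference between THP-1 TNF and CaCo-2 TNF arrays was 1.22 ± 0.25 (SE; limma, adjusted p = 0.0423). Among all spots, 1.25% passed that test. With 0 as missing, the difference was 0.017 ± 0.038 (adjusted p = 0.867), and 1 CaCo-2 array entered. The call also ended with no normalization (adjusted p = 0.0705) and when any 1 of 11 of the 12 arrays was left out, with an adjusted p of up to 0.0956. With the replicate number as a block in the limma fit it ended too (adjusted p = 0.254). Without CaCo-2 TNF replicate 1 the difference was 1.55, but every CaCo-2 TNF value left was then a raised 0. The size and spread of that fit are set by the value put in for 0, so it is no test of the difference. No fold is given for control arrays, where every CaCo-2 value is listed at 0.

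B2M was read on all 22 arrays and was 1.23 times as high in THP-1 as in CaCo-2, with or without TNF. Its intensity on THP-1 TNF arrays was 0.820 at the lowest, 0.906 at the median and 1.07 at the highest. On CaCo-2 TNF arrays it was 0.720, 0.746, 0.800, 0.792 and 0.675. All 7 THP-1 TNF arrays lay above all 5 CaCo-2 TNF arrays, though the lowest of THP-1 was only 1.03 times the highest of CaCo-2. The means were 0.919 ± 0.0821 (SD, n = 7) on THP-1 TNF arrays and 0.747 ± 0.0516 (SD, n = 5) on CaCo-2 TNF arrays, a ratio of 1.23.

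On the normalized log2 scale the difference was 0.26 ± 0.05 (SE; limma, adjusted p = 0.0470), against 0.541% of all spots called higher in THP-1 on TNF arrays. The exact permutation test of the same values gave p = 0.00253 (two-sided), the smallest p that 7 against 5 arrays can give. Of 7751 spots above 0 on every TNF array, 69 (0.89%) had normalized levels that were higher in THP-1 without overlap, as B2M did, and 2.21% were lower without overlap. Of the same spots, 0.555% had deposited intensities that were higher without overlap. The limma call was narrow. It ended when any 1 of 11 of the 12 arrays was left out (adjusted p up to 0.0986), and held without THP-1 TNF replicate 3 (0.0485). It also ended with no normalization (adjusted p = 0.113) and with array medians subtracted (adjusted p = 0.131), with differences of 0.30 and 0.27. With no variance trend and with all 4 groups in 1 fit it ended too (adjusted p = 0.0536 and 0.0761). The same held with the replicate number as a block in the limma fit (adjusted p = 0.230). The exact test gave p = 0.0152 with array medians subtracted. With 1 array left out its p is the smallest possible by construction, since the groups do not overlap.

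On control arrays B2M read 1.07, 0.873, 0.742, 0.898 and 0.880 in THP-1, against 0.655, 0.761, 0.782, 0.754 and 0.673 in CaCo-2. Of the 5 THP-1 control arrays 4 lay above all CaCo-2 control arrays, and replicate 3, read from a sum alone, fell among the CaCo-2 values. The ratio of means was 1.23 here too. The log2 difference was 0.26 with all 10 arrays and 0.33 without THP-1 control replicate 3. In the paired columns the mean of the 3 readings was 0.986 to 1.10 in THP-1 and 0.685 to 0.758 in CaCo-2, so the 3 THP-1 pairs lay above the 7 CaCo-2 pairs. The share of all spots in such an order, in the pairs or on control arrays, was not computed. How unusual B2M is in this respect is therefore not known. In 2 of the THP-1 pairs the sum was 3.39 and 3.89 times the single column, so that the mean reading lay above the middle one.

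Over the 4 groups, the order of B2M was THP-1 TNF, THP-1 control, CaCo-2 TNF and CaCo-2 control, with means of 0.919, 0.893, 0.747 and 0.725. The neighbours within a line differed by less than their spread. THP-1 control and CaCo-2 TNF, the neighbours across lines, overlapped through THP-1 control replicate 3 alone. The coefficient of variation of B2M was 8.93% on THP-1 TNF, 13.3% on THP-1 control, 6.91% on CaCo-2 TNF and 7.84% on CaCo-2 control arrays. That of HLA-E was 2.02% on THP-1 TNF and 2.06% on THP-1 control arrays.

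No difference with TNF was detected for either gene after 60 min. These comparisons share their control arrays with the contrast that brought up HLA-E. In THP-1, the log2 difference between TNF and control arrays was 0.034 ± 0.082 for B2M (SE; limma, adjusted p = 1), with a 95% interval of 0.904 to 1.16 as a fold. Without THP-1 control replicate 3 it was -0.029. For HLA-E in THP-1 it was 0.0058 ± 0.019 (SE; limma, adjusted p = 1), with an interval of 0.975 to 1.03 as a fold. Of all spots, 0.0145% passed this test in THP-1. In CaCo-2 the B2M difference was 0.039 ± 0.049 (SE; limma, adjusted p = 0.949), with an interval of 0.952 to 1.11 as a fold, and 0.0434% of all spots passed. The HLA-E spot was above 0 on 1 of 5 CaCo-2 TNF arrays and 0 of 5 CaCo-2 control arrays, and its fitted difference of 0.31 ± 0.29 (SE; limma, adjusted p = 0.949) rests on that array.

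The response of THP-1 minus that of CaCo-2 was -0.0058 ± 0.10 for B2M and -0.31 ± 0.28 for HLA-E (SE; limma, adjusted p = 1 and 0.981). No spot passed this test (0% of 34559 by limma, with 1443 at an unadjusted p under 0.05).

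**Figure D4:**
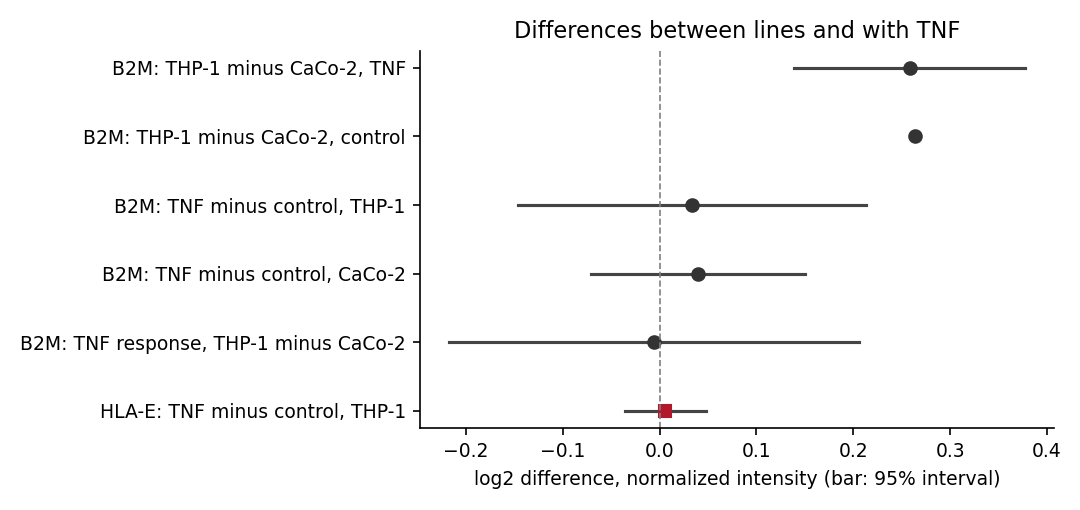
Log2 differences in normalized intensity for B2M (circles) and for HLA-E within THP-1 (square), with 95% intervals of the limma fits as bars. The unstimulated difference between lines is drawn without an interval because those arrays entered the choice of members. The difference between lines on TNF arrays is 0.26, and the 4 TNF differences shown lie between -0.0058 and 0.039.

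Within the 12 THP-1 arrays, where both genes were read throughout, their normalized levels were not shown to move together. Pearson's r was 0.370 (permutation p = 0.239) and Spearman's rho 0.552 (permutation p = 0.0662). Without the 2 arrays farthest from the median of HLA-E, r was 0.745, so its value rests on which arrays are included. This was the only correlation between genes computed within a line. Those of each member with other genes over all 22 arrays are given below.

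None of the other class I genes measured passed a test between the lines. Of 20 listed heavy chains and relatives, 7 had a spot of their own. Class I heavy chain genes are close in sequence, so the HLA-E spot cannot be taken as free of signal from its relatives. None of the 7 passed in any comparison. HLA-F, another non-classical heavy chain, was above 0 on 3 of 7 THP-1 TNF and 1 of 5 CaCo-2 TNF arrays. MR1, which presents vitamin metabolites to T cells, HFE, a regulator of iron uptake, and FCGRT, the neonatal Fc receptor, differed by -0.02 ± 0.04, 0.19 ± 0.21 and -0.01 ± 0.02 on the log2 scale between THP-1 and CaCo-2 on TNF arrays. MICB, a stress-induced ligand of NKG2D that needs no light chain, differed by 0.06 ± 0.03 (adjusted p = 0.469). The median of the 7 was 0.055, beside -0.0079 over all 10726 genes, of which 59 were called higher and 83 lower in THP-1. On control arrays the 7 genes had a median of 0.14 and 7 of 7 positive differences, none past the test. Over all 10726 genes the median there was -0.0076, with 4946 differences positive. These arrays also entered the choice of HLA-E, and whether the 7 shift as a set was not tested. MR1 differed there by 0.08 ± 0.03 (adjusted p = 0.374), short of the threshold.

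Of 18 listed genes of peptide supply and loading, 8 were measured and 0 passed in any comparison. Their median was 0.20 on TNF arrays, with 5 of 8 differences positive, and -0.039 on control arrays, with 2 of 8 positive. Over all 10726 genes, 4898 differences were positive on TNF arrays and 4946 on control arrays. Of all 10726 genes, 59 were called higher and 83 lower in THP-1 on TNF arrays. On control arrays 22 were called higher and 30 lower. A count of 0 in this list or those below is thus near the share over all genes. ERAP1, an aminopeptidase that trims peptides in the endoplasmic reticulum, came nearest to the HLA-E pattern. It was above 0 on 6 of 7 THP-1 TNF arrays and 5 of 5 THP-1 control arrays, against 1 of 5 CaCo-2 TNF and 2 of 5 CaCo-2 control arrays, and its difference on TNF arrays was 0.39 ± 0.13 (adjusted p = 0.236). CANX, the chaperone calnexin, had the smallest p of the list, at -0.09 ± 0.03 (adjusted p = 0.214). TAP2, a subunit of the peptide transporter, was above 0 on 6 of 7 THP-1 TNF and 2 of 5 CaCo-2 TNF arrays, with a difference of 0.45 ± 0.26. TAPBP, which encodes tapasin, differed by 0.42 ± 0.39, with 1 CaCo-2 TNF array at 0, and by -0.05 on control arrays. A dimmer TAPBP spot was above 0 on all arrays of each group, and a further one on 3 of 5 CaCo-2 TNF arrays and all arrays of the other groups. PSME3, a proteasome activator subunit, differed by 0.72 ± 0.36 on TNF arrays and by -0.79 ± 0.43 on control arrays, both short of the threshold (adjusted p = 0.436 and 0.547).

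Of 23 listed transcription factors and interferon signalling genes of class I genes, 11 were measured and 0 passed in any comparison, with a median of 0.034 on TNF arrays and 0.0065 on control arrays. NFYC, a subunit of the factor that binds CCAAT boxes, was above 0 on 7 of 7 THP-1 TNF and 3 of 5 CaCo-2 TNF arrays, with a difference of 0.71 ± 0.32 (adjusted p = 0.406). A dimmer NFYC spot was above 0 on 4 of 7 and 3 of 5 of these arrays. IRF1, which binds interferon-stimulated response elements, differed by 0.20 ± 0.13 between lines on TNF arrays. With TNF, IRF1 differed from control by 0.06 ± 0.05 in THP-1 and by -0.16 ± 0.15 in CaCo-2 (adjusted p = 0.958 and 0.949). A dimmer IRF1 spot went the other way, above 0 on 3 of 7 THP-1 TNF and 1 of 5 THP-1 control arrays. In CaCo-2 it was above 0 on 3 of 5 TNF and 5 of 5 control arrays. A further IRF1 spot was above 0 on 6 of 7 THP-1 TNF and 4 of 5 CaCo-2 TNF arrays. USF2, a helix-loop-helix factor, differed by -0.02 ± 0.02 between lines on TNF arrays.

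Of the class II molecules, HLA-DMA and HLA-DOA, both part of the peptide exchange step, were measured of 11 listed and did not pass, with a median of -0.0035 on TNF arrays and -0.036 on control arrays. HLA-DMA was above 0 on all 22 arrays. Of 20 listed receptors of class I molecules 3 were measured, and 0 passed, with a median of -0.042 on TNF arrays and -0.038 on control arrays. The inhibitory receptors LILRB1 and LILRB2 were above 0 on all 22 arrays, with differences of -0.14 ± 0.07 and -0.04 ± 0.05 on TNF arrays, and CD160 was above 0 on 2 of 12 THP-1 and 0 of 10 CaCo-2 arrays.

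**Figure D5:**
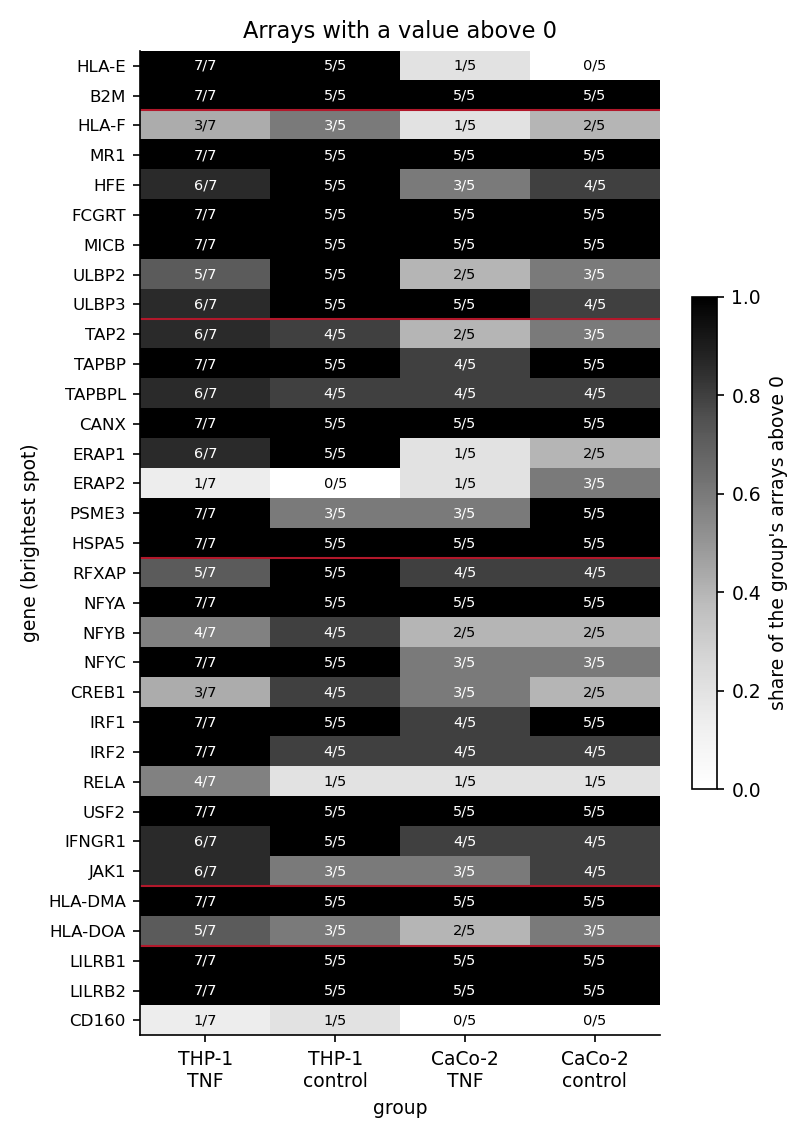
Number of arrays with a value above 0 in each of the 4 groups, for HLA-E and B2M and for the brightest spot of each measured gene of 5 lists, separated by red lines (members, class I heavy chains and relatives, peptide supply, transcription factors and interferon signalling, class II molecules, receptors). The shade is the share of the group's arrays. HLA-E was above 0 on all arrays of both THP-1 groups, against 1 of 5 CaCo-2 TNF and 0 of 5 CaCo-2 control arrays, and ERAP1 came nearest to it.

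Genes were compared where no array had a code below 0, which left 10160 over the 22 arrays. Among these, the levels of LAIR2, IL6R, PPT1, PLEK and ADAMTS15 followed those of HLA-E most closely. Pearson's r was 0.940, 0.898, 0.885, 0.867 and 0.835. A 0 entered at its array's lowest value above 0, so r for HLA-E rests largely on which arrays were listed at 0. LAIR2 encodes a secreted collagen-binding receptor of leukocytes, IL6R the interleukin-6 receptor, PPT1 a lysosomal thioesterase and PLEK the platelet and leukocyte protein pleckstrin. IL6R was above 0 on all 12 THP-1 arrays, at 0.145 to 0.177, and on no CaCo-2 array. LAIR2 was above 0 on 2 CaCo-2 TNF arrays, 1 of which, replicate 1, is also the array that read HLA-E. On that array PLEK and ADAMTS15 were above 0 as well, at 0.191 and 0.163, while IL6R and LAPTM5 were listed at 0. PPT1 was above 0 on all 22 arrays, at 0.485 to 0.559 on THP-1 TNF and 0.326 to 0.434 on CaCo-2 TNF arrays. LAPTM5, the monocytic marker at 0.295 to 0.311 on THP-1 TNF arrays, was read on CaCo-2 TNF replicate 2 in place of replicate 1, and was the only gene of the 7 lists that passed on TNF arrays (1.23 ± 0.23, adjusted p = 0.0360).

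For B2M the closest genes were UXS1, ALMS1, DERL2, PPT1 and PLSCR1, with r of 0.921, 0.879, 0.851, 0.792 and 0.781. UXS1 makes the sugar donor UDP-xylose, ALMS1 is a centrosomal protein, DERL2 acts in the disposal of misfolded proteins from the endoplasmic reticulum and PLSCR1 is an interferon-induced phospholipid scramblase. All 5 were above 0 on all 22 arrays. UXS1 read 0.765 to 1.07 on THP-1 TNF and 0.528 to 0.649 on CaCo-2 TNF arrays, and PPT1 stands in both sets. These correlations describe arrays that share a line and a membrane type, and carry no p.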

How the data were processed

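Membranes with 34560 cDNA spots were hybridised with 33P-labelled cDNA, per the labels' protocols. The deposited intensities are linear, judging by their range. How the authors read and normalized the images is not given in the sources at hand. Of the spots, 18025 carry 1 symbol, 858 several and 15677 are unnamed; 17928 matched the RefSeq gene table and 0 symbols changed. Columns were matched as sum and single where the sum was at least double at 99% or more of spots and 0 only where the single column was 0; a ratio within 0.1% of 2 was read as 2 readings above 0. Codes below 0 (46 to 286 spots per array) were set to missing, 0 was replaced by the array's lowest value above 0, log2 was taken, and the 22 arrays were quantile normalized. Comparisons were fitted in limma 3.58.1 (lmFit, then eBayes with trend; R 4.3.3), each on its own groups. Two-sided p-values were adjusted over all spots by Benjamini-Hochberg, with a threshold of 0.05. Single values used exact permutation and Fisher's exact tests (scipy 1.17.1). The fit was tested on simulated data. A gene with several spots was represented by its brightest, and dimmer spots of the same gene did not always show the same pattern. Named genes are all members, list genes that passed or were at 0 throughout one line and above 0 throughout the other, up to 3 more per list with the smallest p, further list members given by role after their values were seen, and the 5 genes most like each member. Members, lists and tests were chosen with earlier results of these data known. Alternatives changed normalization, the treatment of 0, codes, pairs, filter, trend, samples in the fit and the replicate block, and left out each array. Same-numbered arrays of different groups did not deviate together in every comparison, so the main fits did not take the numbers as pairs.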

Additional observations from a re-analysis of the deposited data

Results flagged for a closer look

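HLA-E read 0.337 on CaCo-2 TNF replicate 1, against 0 on the other 4 CaCo-2 TNF arrays, and this array was set apart by the gap to its group. The summed column of the same array holds 2 readings above 0 of 3. Of the 8 member groups, 7 had a spread and were searched. With the other 4 values at 0, the gap fills the whole range for any value above 0. The chance rate of about 0.35 groups holds for untied values and does not cover this group. The log2 difference between THP-1 and CaCo-2 on TNF arrays was 1.22 with that array. Without it the difference was 1.55, a size set by the value put in for 0, since every CaCo-2 TNF value left was 0.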

How the results depend on the processing

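On TNF arrays, the log2 difference of HLA-E between THP-1 and CaCo-2 lost its call with no normalization (1.15), with 0 as missing (0.017) and with the replicate block (1.21, adjusted p = 0.254). It was largest with the mean of paired columns (2.13; limma, adjusted p = 0.0376), where the call held. With 1 array left out it ran from 1.14 to 1.55, and at 1.55 every CaCo-2 TNF value was a raised 0. That of B2M lost its call with no normalization (0.30), medians subtracted (0.27), no variance trend (0.26, adjusted p = 0.0536), all 4 groups in 1 fit (0.26, adjusted p = 0.0761) and the replicate block (0.25, adjusted p = 0.230), and ran from 0.23 to 0.28 with 1 array left out. For both genes on TNF arrays the direction held in each alternative that gave a value. HLA-E has none with only spots above 0 on every array, and with 0 as missing it keeps 1 CaCo-2 array. Otherwise the cause was not tested. With 1 array left out, the B2M difference under the exact permutation test was 0.23 to 0.28 (p = 0.00433 to 0.00606, the smallest possible), and Fisher's exact test of HLA-E gave p = 0.00303 to 0.0242. The pairing by replicate number rests on numbers alone: correlations of deviations between same-numbered arrays ran from -0.522 to 0.606. Between lines on TNF arrays each was above 0, at 0.0083 to 0.319.

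Differences with TNF that did not pass also changed sign. For HLA-E in THP-1 they were -0.012 with no normalization, -0.0048 with medians subtracted, -0.011 with 0 as missing, -0.0045 with the mean of paired columns and -0.0069 with the replicate block, and -0.0058 to 0.013 with 1 array left out. The B2M response of THP-1 minus that of CaCo-2 was 0.0032 with no normalization, 0.050 with medians subtracted, 0.014 with the mean of paired columns, and -0.068 to 0.059 with 1 array left out. With 1 array left out, B2M differed by -0.029 to 0.098 with TNF in THP-1 and by -0.00041 to 0.064 in CaCo-2, and the HLA-E response difference ran from -0.39 to 0.0058.

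The number of spots called over all spots also moved. Between lines on TNF arrays it was 432, against 149 with no normalization, 104 with 0 as missing, 281 without dim spots, 165 with the replicate block and 115 to 329 with 1 array left out. Between lines on control arrays it was 155, against 26 with no normalization, 37 with medians subtracted, 52 with 0 as missing, 71 without dim spots and 175 to 471 with 1 array left out. With TNF in THP-1 it was 5, against 1 with no normalization or medians subtracted, 12 with 0 as missing, 0 with only spots above 0 on every array (299 at an unadjusted p under 0.05), 0 with all 4 groups in 1 limma fit (1098 unadjusted), 74 with the replicate block and 5 to 20 with 1 array left out. With TNF in CaCo-2 it was 15, against 1 with no normalization, 2 with medians subtracted, 0 with 0 as missing (912 unadjusted), 0 with only spots above 0 on every array (193 unadjusted), 23 with the mean of paired columns, 6 with the pair of differing labels kept, 9 without dim spots, 3 with the replicate block and 29 to 51 with 1 array left out. For the difference of responses it was 0, against 26 with 0 as missing, 108 with the replicate block and 0 to 12 with 1 array left out. No background per spot was used here, so how dim a transcript could have been detected is not known.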
